A study of Mus musculus with 6 samples.

Results

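The circadian clock feedback loop genes were taken by symbol as the 3 Period genes (Per1, Per2, Per3), the 2 Cryptochrome genes (Cry1, Cry2), the 2 REV-ERB receptors (Nr1d1, Nr1d2), Dbp, Ciart and Clock. All 10 were found among the 18228 genes of the deposited table, and all 10 passed the filter on low counts with 14702 genes in all. RNA had been sequenced from the hypothalamus of 6 Mus musculus, 3 aged mice of 22 months and 3 young mice of 12 weeks, drawn at random from the animals of a behavioural experiment. No strain, genotype or drug treatment separates the groups in the labels. All mice were kept under a regular light/dark cycle with free access to food and water, and were killed by dislocation under sodium pentobarbital. Neither the hour of death nor the sex of the mice is given.

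The mammalian clock is a transcriptional loop. CLOCK pairs with BMAL1 (gene Arntl) and binds E-box elements to switch on the Period and Cryptochrome genes, whose proteins return to the nucleus and repress that pair. REV-ERB proteins from Nr1d1 and Nr1d2, themselves switched on through E-boxes, repress Arntl at ROR elements, where ROR receptors activate it. Cells of the suprachiasmatic nucleus, a small part of the hypothalamus, run this loop as the master clock of the body, and most other cells of the tissue run it too. Because nearly all of these messenger RNAs rise and fall over the day, a single time of sampling records their level at one phase only.

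The library totals ranged from 17208291 to 18884403 counts, and member counts ranged from 202 to 3095 per library, the smallest for Ciart. Levels below are CPM, read counts scaled to the library total and to a TMM factor that corrects for library composition. Each fold change compares aged with young on the log2 scale and carries the standard error (SE) from edgeR's quasi-likelihood test. The threshold was an adjusted p of 0.05 (Benjamini-Hochberg, over all genes tested). At this threshold 6.86% of all genes tested passed, 3.22% as higher and 3.64% as lower in aged mice. Y-linked genes summed to 184 to 203 CPM in the aged libraries and to 1.38 to 1.88 CPM in the young ones, so age and a difference in sex cannot be told apart in any result below. In bulk tissue, fewer cells of a type and less RNA per cell cannot be told apart either.

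Of the 10 clock genes, 4 passed. Per1, Per2 and Cry1, which encode repressors of the loop, were higher in aged hypothalamus, and Nr1d1 was lower. Per3, Cry2, Nr1d2, Dbp, Ciart and Clock did not pass. The 10 log2 fold changes had a median of 0.20, beside -0.00 over all genes tested, and 7 of 10 were positive. For 5 of the 10 the aged and young libraries did not overlap, which was so for 31.7% of all genes tested.

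Promoter sequences are shown for the 3 members that passed and have an entry in the table used (Per1, Cry1 and Nr1d1), for Ciart, which holds several E-boxes, and for Per3, a Period gene that did not pass. The sequences are from RefSeq (GRCm38.p6) and run from 250 bases before to 50 bases after an annotated start, 5′ to 3′ on the gene's strand. Capitals mark matches, on either strand, to the E-box CACGTG, the variant E-box CACGTT, the D-box TTATGTAA, the ROR element core AGGTCA and the cAMP response element core TGACG. Another Per1 window (chr11:69099902-69100201), not shown, held the cAMP core at 132 bases before its start.
Per1, chr11:69098699-69098998, plus strand: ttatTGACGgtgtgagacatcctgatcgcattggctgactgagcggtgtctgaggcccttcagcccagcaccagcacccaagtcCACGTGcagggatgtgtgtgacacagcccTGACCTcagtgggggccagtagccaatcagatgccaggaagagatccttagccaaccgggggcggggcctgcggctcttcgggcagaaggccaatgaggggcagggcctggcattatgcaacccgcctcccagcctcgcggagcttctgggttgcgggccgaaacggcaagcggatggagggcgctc
Cry1, chr10:85185005-85185304, minus strand: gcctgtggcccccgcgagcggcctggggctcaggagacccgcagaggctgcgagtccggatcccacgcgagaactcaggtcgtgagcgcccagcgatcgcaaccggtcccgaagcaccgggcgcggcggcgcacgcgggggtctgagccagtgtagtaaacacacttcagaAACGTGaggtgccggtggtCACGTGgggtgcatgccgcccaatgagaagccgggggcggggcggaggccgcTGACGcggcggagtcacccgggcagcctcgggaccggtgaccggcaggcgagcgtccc
Nr1d1, chr11:98775328-98775627, minus strand: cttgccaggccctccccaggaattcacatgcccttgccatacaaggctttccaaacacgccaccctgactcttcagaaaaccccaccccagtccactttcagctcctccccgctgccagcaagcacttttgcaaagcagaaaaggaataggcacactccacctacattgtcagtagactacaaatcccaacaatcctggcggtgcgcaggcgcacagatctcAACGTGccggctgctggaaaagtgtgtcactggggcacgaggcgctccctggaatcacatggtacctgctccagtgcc
Ciart, chr3:95882179-95882478, minus strand: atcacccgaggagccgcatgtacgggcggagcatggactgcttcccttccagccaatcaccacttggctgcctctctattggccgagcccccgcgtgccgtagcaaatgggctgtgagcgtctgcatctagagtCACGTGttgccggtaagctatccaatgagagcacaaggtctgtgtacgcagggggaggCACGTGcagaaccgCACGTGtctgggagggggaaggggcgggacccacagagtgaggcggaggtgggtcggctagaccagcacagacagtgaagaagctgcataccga
Per3, chr4:151044616-151044915, minus strand: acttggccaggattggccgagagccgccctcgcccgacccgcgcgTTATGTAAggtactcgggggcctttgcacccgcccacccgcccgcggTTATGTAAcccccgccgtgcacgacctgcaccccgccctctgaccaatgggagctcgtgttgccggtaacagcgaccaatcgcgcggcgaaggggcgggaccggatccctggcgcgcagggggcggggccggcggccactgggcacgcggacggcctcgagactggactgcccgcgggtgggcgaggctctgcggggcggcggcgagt
The E-box, a palindrome, was found in Per1, Cry1 and Ciart, 3 of the 9 members with an entry, beside 8.09% of all 27025 genes with a window. In Ciart it occurred at 116, 58 and 44 bases before the start. The variant E-box was found in Cry1, Cry2 and Nr1d1, beside 5.44% of all genes. The letters TTATGTAA of the D-box, the element bound by DBP, were found in 1 member, Per3, beside 1.11% of all genes. They lay at 205 and 158 bases before the start. Variants of these letters, such as the unmarked ttatgcaa in the Per1 window, were not searched. The ROR core was in Clock, Nr1d2 and Per1 (18.13% of all genes), and the cAMP core, which lies within the full element, was in Cry1, Cry2 and Per1 (23.05%). The full cAMP response element TGACGTCA and the glucocorticoid receptor core TGTTCT had no match in the 9 members, beside 2.03% and 21.28% of all genes. A match or its absence describes the letters of these windows only.

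Per1, the Period gene best known for fast induction, measured 170.1, 133 and 179 CPM in the 3 aged libraries and 86.3, 81.5 and 77.8 CPM in the 3 young ones. Every aged library lay well above every young library, and the aged libraries were themselves spread more widely (160.5 ± 24.4 against 81.9 ± 4.23 CPM, SD, n = 3 each). The log2 fold change was 0.97 ± 0.10 (SE, 95% interval 0.74 to 1.20), a 1.96-fold difference, with an adjusted p of 0.00243 by edgeR. Per1 passed in all 20 alternative fits, 14 with other settings and 6 without 1 library.

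Per2, a second Period repressor, measured 71.4, 54.9 and 72.1 CPM in aged and 48.2, 38.6 and 40.7 CPM in young libraries. The groups did not overlap, though the lowest aged library came close to the highest young one. Its log2 fold change was 0.64 ± 0.12 (SE, 95% interval 0.37 to 0.90), or 1.56-fold, with an adjusted p of 0.0186 by edgeR. The call was lost without aged replicate 1 (0.0647), aged replicate 3 (0.0752) or young replicate 3 (0.0615), these being edgeR adjusted p values.

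Per3, the Period gene least needed for rhythm in mice, measured 68.3, 64.1 and 83.1 CPM in aged and 68.3, 57.6 and 62.8 CPM in young libraries. The groups overlapped through aged replicate 2, and aged replicate 1 all but equalled the highest young library. Its log2 fold change of 0.19 ± 0.10 (SE) did not pass (95% interval -0.04 to 0.42, adjusted p = 0.270 by edgeR).

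**Figure D1:**
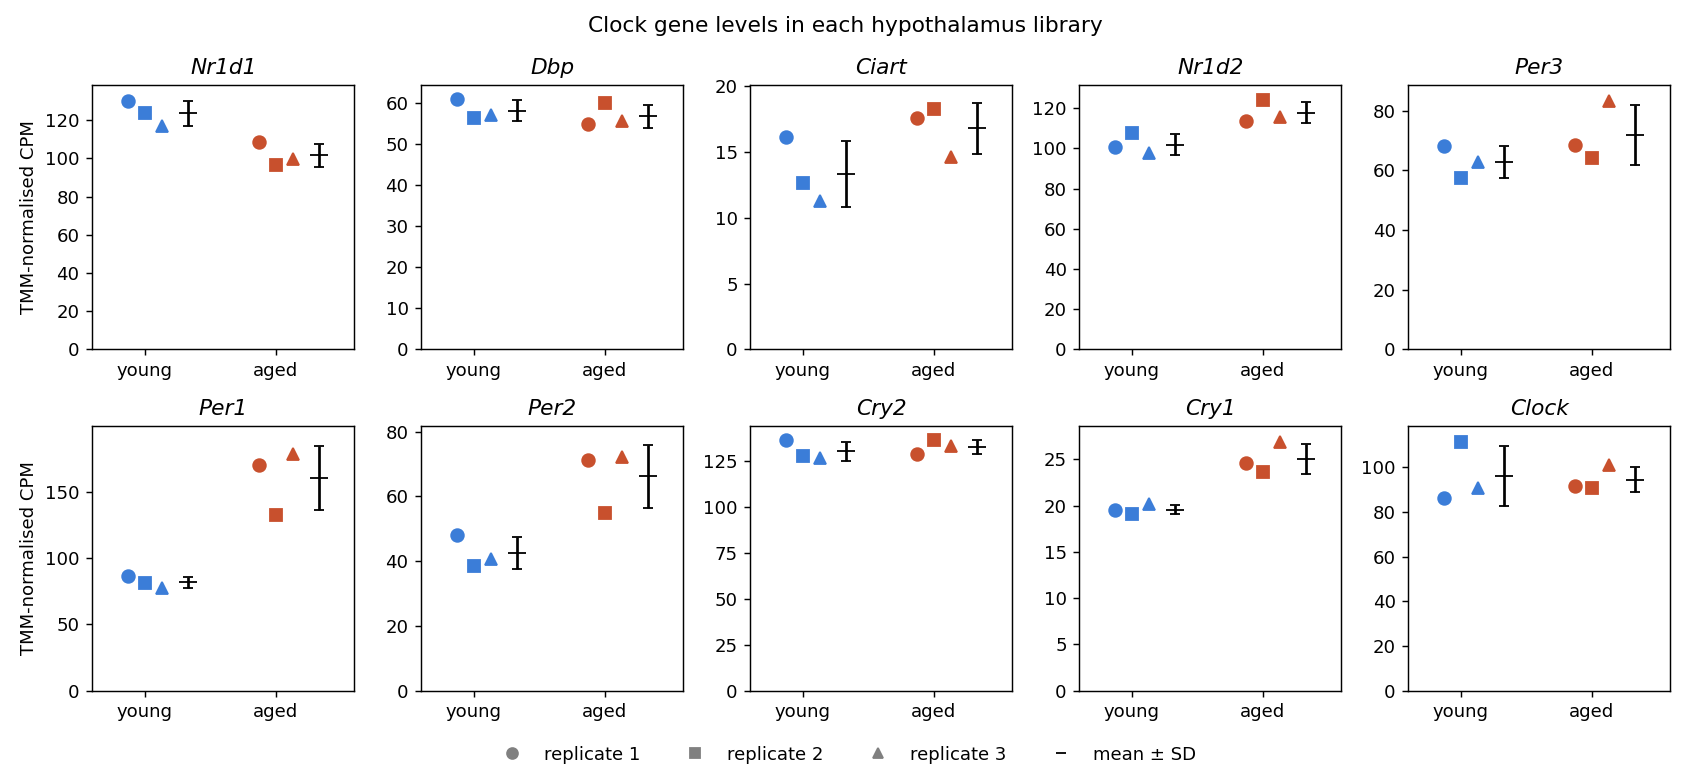
CPM of the 10 clock genes in each of the 6 libraries (points), with the group mean and SD. Per1 has the widest gap between aged (133 to 179 CPM) and young (77.8 to 86.3 CPM) libraries, while Cry2, Dbp and Clock overlap.

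Of the Cryptochrome genes, Cry1 passed and Cry2 did not. Cry1, a strong repressor of CLOCK and BMAL1, measured 24.6, 23.7 and 26.8 CPM in aged and 19.5, 19.1 and 20.1 CPM in young libraries. All aged libraries were higher, and the young ones lay close together. The log2 fold change was 0.35 ± 0.08 (SE, 95% interval 0.17 to 0.53), or 1.28-fold, with an adjusted p of 0.0320 by edgeR. The call held without aged replicate 2 (adjusted p = 0.0212 by edgeR) and was lost without any other library (0.0720 to 0.137).

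Cry2, the second Cryptochrome repressor, measured 129, 136 and 133 CPM in aged and 136, 128 and 127 CPM in young libraries. These values interleave. The log2 fold change of 0.03 ± 0.06 (SE) did not pass (adjusted p = 0.817 by edgeR), and its 95% interval was -0.10 to 0.16.

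Nr1d1, which encodes REV-ERB alpha, the repressor of Arntl, was the only member to pass as lower in aged mice. It measured 108, 96.5 and 99.8 CPM in aged and 129.9, 124 and 117 CPM in young libraries, without overlap. The log2 fold change was -0.28 ± 0.07 (SE, 95% interval -0.43 to -0.13), a change of -17.8%, with an adjusted p of 0.0388 by edgeR. The call was lost in each of the 6 fits without 1 library (adjusted p 0.0600 to 0.160 by edgeR), with log2 fold changes from -0.32 to -0.24. Nr1d1 lies antisense to Thra, a thyroid hormone receptor gene whose 3′ end overlaps it, and the strand setting of the counting is not given in the sources used here. Thra was far more abundant, at 839, 764 and 867 CPM in aged and 709, 770.3 and 731 CPM in young libraries, and its log2 fold change of 0.16 ± 0.06 (SE) had the opposite sign (adjusted p = 0.154 by edgeR, and 0.0439 without aged replicate 2).

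Nr1d2, which encodes REV-ERB beta, measured 114, 124 and 116 CPM in aged and 101, 108 and 97.5 CPM in young libraries. All aged values lay above all young values, in the direction opposite to Nr1d1. Its log2 fold change of 0.21 ± 0.06 (SE, 95% interval 0.07 to 0.35) had an unadjusted p of 0.00879 and an adjusted p of 0.0773 by edgeR, and did not pass.

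Dbp encodes a D-box activator and is a direct output of CLOCK and BMAL1. It measured 54.8, 59.9 and 55.5 CPM in aged and 61.0, 56.2 and 57.1 CPM in young libraries, which overlapped. The log2 fold change was -0.03 ± 0.07 (SE, 95% interval -0.18 to 0.12, adjusted p = 0.790 by edgeR). Ciart, also called Chrono, encodes a repressor that acts on the same pair of activators. It measured 17.5, 18.2 and 14.6 CPM in aged and 16.1, 12.6 and 11.2 CPM in young libraries, with young replicate 1 inside the aged range. Its log2 fold change was 0.34 ± 0.14 (SE, 95% interval 0.02 to 0.65), and with an unadjusted p of 0.0404 and an adjusted p of 0.169 by edgeR it did not pass.

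Clock, the activator among the members and the one whose RNA varies least over the day in most tissues, measured 91.6, 90.9 and 101 CPM in aged and 86.2, 111 and 90.9 CPM in young libraries. The highest value was in young replicate 2 and the lowest in young replicate 1, with the aged libraries between. The log2 fold change was -0.02 ± 0.10 (SE, 95% interval -0.24 to 0.19, adjusted p = 0.903 by edgeR). It kept its sign in 12 of 20 alternative fits and turned to 0.10 without young replicate 2. That library also had the most RNA of cortex and thalamus markers, whose 10 genes summed to 460 CPM there, to 189 and 197 CPM in the other young libraries and to 121 to 135 CPM in the aged ones. The part of this difference in the Clock values was not tested.

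Levels of different genes were compared as FPKM, which divides by gene length. Nr1d1 and Cry2 were the most abundant members, at 44.3 ± 1.93 and 31.2 ± 1.10 FPKM in young libraries (SD, n = 3), and Cry1 was the least abundant at 4.87 ± 0.192 FPKM. Per1 lay at 9.56 ± 0.413 FPKM in young libraries, beside 9.57 ± 1.28 for Clock and 9.15 ± 0.794 for Per3, which do not differ beyond their spread. In aged libraries Per1 was at 19.1 ± 2.76 FPKM, near Dbp at 23.1 ± 1.33 and above Clock at 9.61 ± 0.568. Per2 moved from 6.91 ± 0.802 in young to 10.97 ± 1.53 FPKM in aged libraries and overtook Clock and Per3 in mean level, within their spread. Spread between mice, as the SD of log2 CPM, had a median over the members of 0.0896 in aged and 0.0755 in young libraries. Over the 10720 genes with at least 10 CPM it was 0.0858 and 0.0863.

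Placed in the textbook order of their daily peaks, from Nr1d1 and Dbp early to Cry1 late, the fold changes do not run evenly. The early-peaking Nr1d1 was lower and Dbp near 0. Ciart (0.34), Nr1d2 (0.21) and Per3 (0.19) came next, all positive, and did not pass. The largest differences were in Per1 and Per2, in the middle of the order. The late-peaking Cry1 was higher while Cry2 was near 0. With 1 time of sampling the order is a way to arrange the genes, not a measure of phase.

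**Figure D2:**
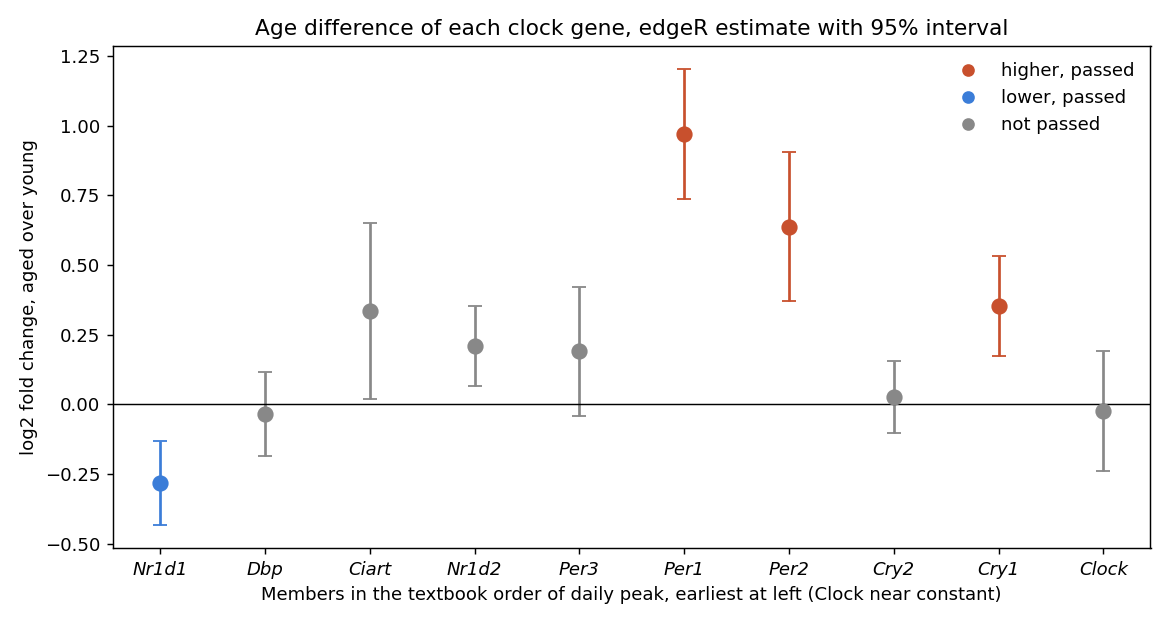
Log2 fold change (aged over young) of each clock gene with its 95% interval, with members in the textbook order of daily peak and Clock last. Per1 (0.97) and Per2 (0.64) lie highest, and Nr1d1 (-0.28) is the only member whose interval lies below 0.

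Ratios between members within a library do not depend on how libraries are scaled. The log2 ratio of Per1 to Nr1d1 was 0.65, 0.46 and 0.84 in the aged libraries and -0.59, -0.60 and -0.59 in the young ones. The difference between group means was 1.24. The sign of a count ratio also depends on gene length (8.474 kb for Per1, 2.76 kb for Nr1d1), so only the difference between groups is read. In FPKM, Nr1d1 lay above Per1 in every library (means of 37.1 against 19.1 in aged mice). Nr1d1 against its paralog Nr1d2 had log2 ratios of -0.07, -0.36 and -0.21 in aged and 0.37, 0.20 and 0.26 in young libraries. Here too the groups were separated, with a difference of -0.49, while in FPKM Nr1d1 lay above Nr1d2 in every library. Per1 against Per2 differed by 0.33, Per1 against Per3 by 0.77, Cry1 against Cry2 by 0.33, and Dbp against Nr1d1 by 0.25. The groups did not overlap in any of these 10 pairs, each of which holds Per1, Nr1d1 or Cry1, genes already called. Over all 45 pairs of members they did not overlap in 26 (57.8%), in 23 of the 30 pairs with a called gene and in 3 of the 15 without one. Among all pairs of the 10720 genes with at least 10 CPM the share was 33.4%. For the 10 pairs the 2-sided exact permutation test gave p = 0.1 for each pair, adjusted p = 0.1 over the 10, which is the smallest value 3 against 3 libraries allow, and the pairs share genes.

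**Figure D3:**
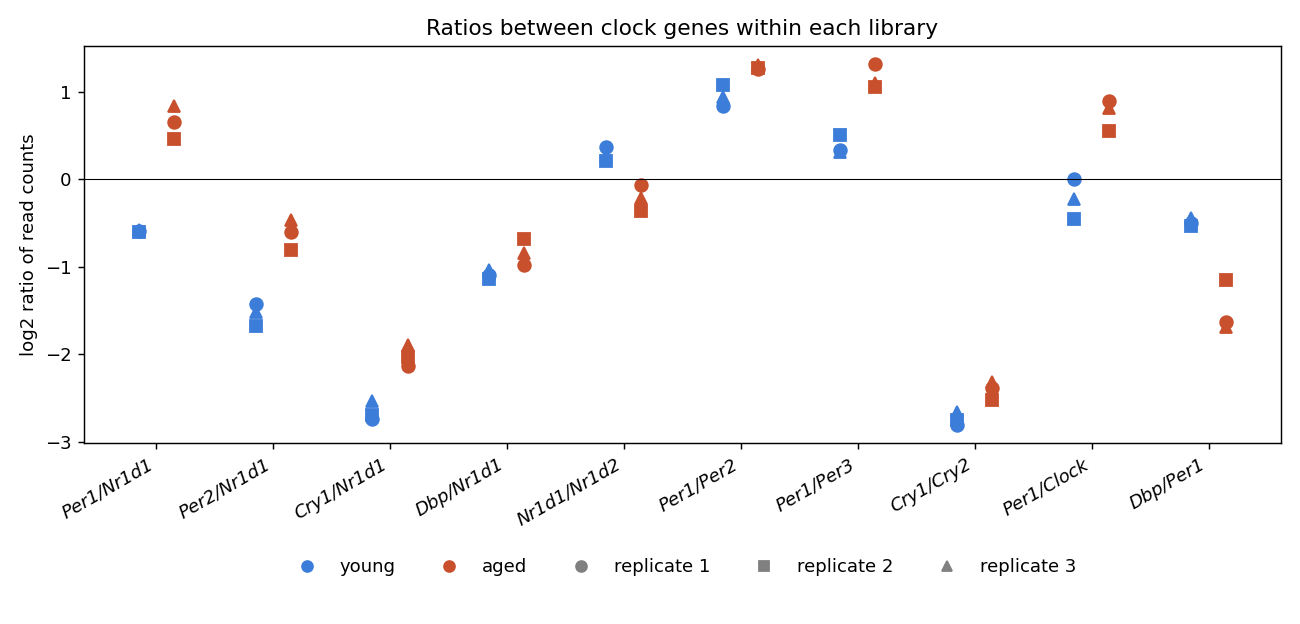
Log2 ratio of counts within each library for the 10 pairs of clock genes, aged and young libraries as points. Each pair holds a called gene, and the groups do not overlap in these 10 (33.4% of all pairs of genes with at least 10 CPM). For Per1 against Nr1d1 the aged libraries lie at 0.46 to 0.84 and the young ones near -0.59.

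The aged mice also differed among themselves. Aged replicate 2 had the lowest aged level of Per1, Per2, Per3, Cry1, Nr1d1 and Clock and the highest of Cry2, Nr1d2, Dbp and Ciart. Aged replicate 3 had the highest aged level of Per1, Per2, Per3, Cry1 and Clock. Without aged replicate 2 the Per1 log2 fold change was 1.10, and 901 genes in all passed as higher and 732 as lower, against 474 and 535 with all libraries.

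Arntl and Rora, which belong to the activating side of the loop, had lower mean levels in aged mice but did not pass. Of 30 further clock genes tested, 1 passed as higher and 1 as lower (6.67%), with a median log2 fold change of 0.03. Among 6 activators and ROR receptors none passed by edgeR or by DESeq2, while 4 had an unadjusted p under 0.05 by edgeR. With no filter on low counts, or with a replicate block, 1 passed as lower (Rora). Arntl, the partner of CLOCK and the target of REV-ERB repression, measured 28.6, 26.6 and 30.3 CPM in aged and 32.2, 32.7 and 32.9 CPM in young libraries. These groups did not overlap, but the log2 fold change of -0.19 ± 0.07 (SE) did not pass (adjusted p = 0.137 by edgeR). Rora, an activator of Arntl, measured 49.0, 46.8 and 50.5 CPM in aged and 78.8, 109.8 and 54.6 CPM in young libraries. The groups did not overlap, but the young values were spread widely. The highest was in young replicate 2, which also had the most RNA of cortex and thalamus markers. The Rora log2 fold change of -0.73 ± 0.20 (SE, adjusted p = 0.0559 by edgeR) became -0.44 without that library. Rora passed without young replicate 3 (adjusted p = 0.0180 by edgeR). Rorb, another ROR receptor, had a log2 fold change of -0.22 ± 0.07 (SE) and did not pass (adjusted p = 0.0874 by edgeR). It is also among the cortex and thalamus markers, which were lower in aged libraries. The part of that difference in the Rora and Rorb values was not tested.

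Among 12 further outputs and repressors, Usp2 passed as higher. This ubiquitin protease, a rhythmic gene that acts on clock proteins, measured 63.9, 38.8 and 65.9 CPM in aged and 26.3, 28.9 and 25.4 CPM in young libraries. Its aged replicate 2 was the lowest aged value, as for Per1, and its log2 fold change was 1.06 ± 0.18 (SE, adjusted p = 0.0128 by edgeR). The call was lost without aged replicate 3 (adjusted p = 0.0538 by edgeR). Nfil3, a D-box repressor, had a log2 fold change of 0.40 ± 0.12 (SE) and the E-box repressors Bhlhe41 and Bhlhe40 had 0.26 ± 0.09 and 0.27 ± 0.11, none of which passed (adjusted p 0.0834, 0.103 and 0.143 by edgeR), though Nfil3 did without young replicate 2 (0.0485) and Bhlhe40 without aged replicate 2 (0.0176). Among 12 kinases and turnover factors of clock proteins, Gsk3b, a kinase that phosphorylates several of them, was lower. It measured 168, 194 and 169 CPM in aged and 228, 243 and 213 CPM in young libraries, a log2 fold change of -0.37 ± 0.08 (SE, adjusted p = 0.0248 by edgeR). That call was lost without aged replicate 1, aged replicate 3, young replicate 1 or young replicate 2 (adjusted p 0.0622 to 0.110 by edgeR), and with a gene length trend removed, 1 of the 14 other settings.

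The tissue was checked with markers. All 15 hypothalamic markers passed the filter, and Avp and Hcrt, the vasopressin and orexin genes, were the ones to pass the test, Avp as higher and Hcrt as lower. The Hcrt call was lost without aged replicate 1 or aged replicate 3 (adjusted p 0.0606 and 0.0723 by edgeR). The 13 markers of the suprachiasmatic nucleus summed to 569 to 589 CPM in aged and 455 to 506 CPM in young libraries. Avp, which is made in other hypothalamic nuclei as well, measured 357, 373 and 361 CPM in aged and 220.5, 253 and 248 CPM in young libraries. The other 12 markers summed to 212 to 224 CPM in aged and 235 to 253 CPM in young libraries, and 2 of them had a positive log2 fold change. These 12 include Rorb, which is also among the 10 cortex and thalamus markers. The median over all 13 was -0.18. Vip, a peptide of the core of that nucleus, was at 6.95, 7.58 and 9.81 CPM in aged and 7.44, 8.56 and 11.7 CPM in young libraries. Zfhx3, a transcription factor of that nucleus, was lower (57.7, 55.1 and 54.7 against 79.4, 70.4 and 74.4 CPM, log2 fold change -0.42 ± 0.07, SE, adjusted p = 0.0102 by edgeR), a call that held in 10 of 14 other settings and was lost without aged replicate 3 (0.0643). The part of these markers in the clock gene results was not tested. Of 10 astrocyte markers 4 were lower, with sums of 3090 to 4209 CPM in aged and 4662 to 4918 CPM in young libraries, lowest in aged replicate 2. Of 10 microglial markers 3 were higher and 1 lower, of 10 endothelial markers 1 was higher and 3 lower, and of 10 oligodendrocyte markers 1 was lower. Sox9, Aqp4, C1qa, C1qb, Cldn5 and Slc2a1 were called in all 20 alternative fits. The other calls of these 4 lists (Slc1a2, Slc4a4, Trem2, P2ry12, Tek, Kdr and Opalin) held in 1 or 2 of the 6 fits without 1 library. The 10 neuronal markers summed to 4985 to 5313 CPM in aged and 5275 to 6075 CPM in young libraries. Of 10 cortex and thalamus markers 3 were lower (Plekhg1, Tcf7l2 and Neurod6), and 0 had a positive log2 fold change (median -0.96). Without 1 library, the Plekhg1 call held in 2 of 6 fits, and the Tcf7l2 and Neurod6 calls in 1 of 6 each.

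Per1 is known as a target of glucocorticoid and cAMP signalling as well as of the clock, so genes of such inducible programmes were counted beside it. Of 15 glucocorticoid response genes 9 were higher and none lower by edgeR, with a median log2 fold change of 0.69. Their levels summed to 935, 704 and 861 CPM in aged and 494, 553 and 571 CPM in young libraries. Aged replicate 2 was the lowest aged one, as for Per1, but the highest was aged replicate 1, against aged replicate 3 for Per1. Sgk1, a kinase gene induced by glucocorticoids, measured 181, 104 and 158 CPM in aged and 26.5, 31.9 and 33.8 CPM in young libraries, a log2 fold change of 2.26 ± 0.19 (SE). Of 15 immediate early genes and CREB targets 8 were higher (median 0.50), with sums of 905, 910.1 and 1234 CPM in aged and 526, 689 and 521 CPM in young libraries. That count was 4 without aged replicate 3, young replicate 1 or young replicate 3. In this list the lowest aged sum was in aged replicate 1 and the highest in aged replicate 3. Of 10 heat shock genes 6 were higher (median 0.81), and 3 with edgeR's robust estimation. They summed to 4334, 3690 and 4732 CPM in aged and 3254, 3529 and 3428 CPM in young libraries. Here aged replicate 2 was the lowest aged one and aged replicate 3 the highest, as for Per1. Of the cold-inducible RNA-binding genes, which follow temperature over the day, Rbm3 was higher (0.72 ± 0.09, SE, adjusted p = 0.00468 by edgeR) and Cirbp was not (0.01 ± 0.11, adjusted p = 0.968). The part of these programmes in the Per1, Per2 and Cry1 differences was not tested.

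**Figure D4:**
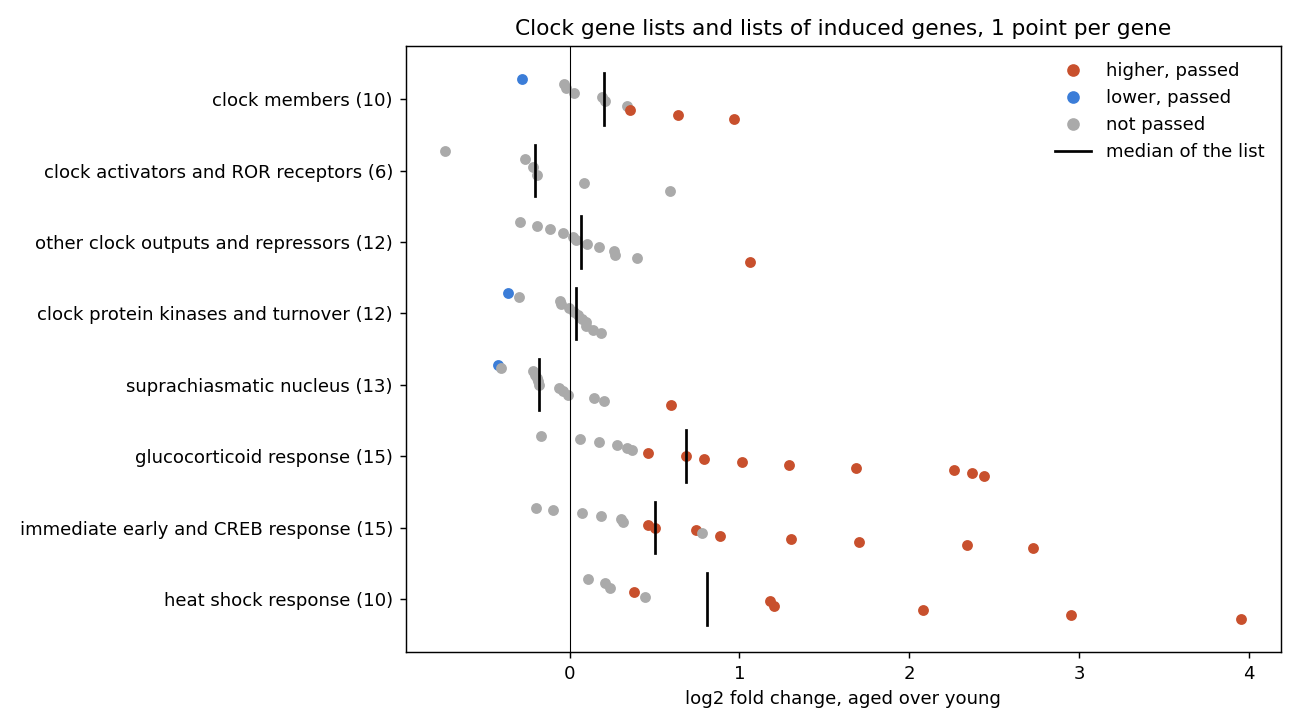
Log2 fold change (aged over young) of each tested gene, as points, in the clock lists and the inducible gene lists, with the list medians. The clock members have a median of 0.20, the glucocorticoid genes 0.69 and the heat shock genes 0.81.

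The genes whose profile over the 6 libraries was most like that of Per1 were Nfkbiz, Slc2a1, Pglyrp1, Fkbp5 and Serpina3n, at a root mean square difference of 0.11 to 0.12 on the log2 scale among 13345 genes compared. Per2 ranked 87 by this measure, Cry1 ranked 528 and Nr1d1 ranked 11819. Nearest to Nr1d1 were Tenm4, Mmp15, Tnrc18, Clip3 and Slc25a23, at 0.027 to 0.032. The log2 fold changes of the 5 genes nearest to Per1 ran from 0.85 to 1.01. The measure includes the difference between age groups, so fold changes near that of Per1 follow from how the genes were chosen. The ranks largely restate fold changes too. A profile here is 6 values in 2 age groups.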

How the data were processed

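RNA-seq of hypothalamus from 3 aged and 3 young mice was analysed, each library being from a separate mouse and counted as 1 sample. The authors deposited whole-number read counts per gene, not normalized, and FPKM for the same genes. FPKM equalled count divided by gene length and library total within 1e-06 for 18228 genes. The submitters' processing notes name Trimmomatic, HISAT2, Cufflinks, HTSeq and DESeq, and GRCm39 as the build, with no version. Libraries were made with a stranded messenger RNA kit, per the labels' protocols. How the counting used strand and multiply matching reads is not given in the sources used here. Values of genes that overlap a neighbour with deposited counts (Nr1d1 with Thra, Dbp with Sphk2) are therefore uncertain. Per2, Per3, Cry2, Ciart and Clock overlap annotated genes without deposited counts. Whether those genes entered the counting is not known.

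The test was the quasi-likelihood F test of edgeR (version 4.0.16, under R 4.3.3) with TMM scaling of the deposited counts, no covariate, and filterByExpr (minimum count 10, minimum total 15), which left 14702 genes holding 99.9% of counts. P-values were adjusted by Benjamini-Hochberg over these genes. The biological coefficient of variation was 8.52%. Replicates differed beyond sampling noise (chi-square of their counts over its degrees of freedom, 4.04 to 12.1). Alternatives were other scalings and filters, DESeq2 1.42.0, limma 3.58.1 (voom, and trend on log2 of FPKM plus 1 or 0.1), a replicate block, leaving out each library, and, chosen after seeing the data, removal of a gene length trend.

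The text names all members, Thra, at most 4 genes of the smallest p per further list, and the 5 nearest profiles of Per1 and Nr1d1. Some results are not reported here. Vip was named outside this rule, after its values were seen. The members and lists were chosen with earlier results of these data known. Motifs were searched in RefSeq promoter windows of GRCm38.p6, used only for these sequences.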

Additional observations from a re-analysis of the deposited data

How the results depend on the processing

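Under all 14 other settings run (scaling, filters, tools, FPKM scales, the replicate block, Y-linked genes left out, gene length trend removed) 3 members passed as higher and 1 as lower, and Per1, Per2, Cry1 and Nr1d1 were each called in 14 of 14. At an adjusted p under 0.01, 1 member was higher and 0 lower, and under 0.1, 4 were higher. Leaving out each library gave 1 to 3 members higher and 0 to 0 lower. Replicate numbers did not pair the mice (correlations of deviations 0.095, 0.037 and -0.138), and 2 of 6 samples matched their own number best. With the replicate block, Per1 had a log2 fold change of 0.96 (adjusted p = 0.00214 by edgeR), and 523 genes in all were higher and 667 lower, against 474 and 535 without it. The split of all calls was 627 higher and 446 lower with total counts alone, 616 and 293 with log2(FPKM + 1), 622 and 303 with log2(FPKM + 0.1), and 584 and 287 with a mean FPKM of at least 1. DESeq2 called 587 and 723, and removal of the length trend gave 403 and 355. Without 1 library, 95 to 901 genes were higher and 55 to 732 lower. Total counts and FPKM moved the median of all genes by under 0.03 on the log2 scale. Dbp kept its sign in 19 of 20 alternative fits and turned to 0.01 without young replicate 1. Clock kept its sign in 12 of 20, and was at 0.07 with the length trend removed. The causes were not tested. Outliers were not looked for in groups of 3. Depth limits Ciart most among the members, with a smallest count of 202.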
